A study of Mus musculus with 6 samples.

Results

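Expression of 9 matricellular genes was followed through 6 single-cell libraries of mouse pancreatic tumours: Spp1, Mgp, Postn, Tnc, Thbs1, Thbs2, Sparc, Sparcl1 and Cthrc1. They were taken by gene symbol, and all 9 were found among the 32285 genes of every matrix. The tumours of both groups came from mice that carried P53LSL.R172H/+ and Pdx1-Cre. In this model a Cre driven by the Pdx1 promoter recombines the p53 allele in the pancreatic epithelial lineage, so that mutant p53 is made there and not in the stroma. One group (n = 3 libraries) received IPI-926, which blocks Smoothened, the protein that passes the Hedgehog signal into the cell, by oral gavage at 40 mg/kg each day for 2 days. The other (n = 3 libraries) received vehicle, a solution of hydroxypropyl-beta-cyclodextrin, over the same 2 days. Tumours were taken 2 hours after the last dose, dissociated with enzymes, cleared of red blood cells and made into 1 library each with 10x Genomics 3′ chemistry. Ages are not given in the labels, and they do not say how tumours were assigned to groups, so p-values measure only the spread between these libraries.

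Matricellular proteins are secreted into the matrix around cells, where they act less as scaffold than as signals: they bind integrins, CD44, CD36 or CD47 on cells, and they bind collagen, growth factors and proteases outside them. Most are low in resting tissue and rise in wounds, fibrosis and tumour stroma. In pancreatic cancer the Hedgehog ligand made by tumour cells acts mainly on fibroblasts and perivascular cells, the same stroma in which many of these proteins are made.

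The bases just before the start site of a member were printed for Spp1 and Thbs2, which lay on opposite sides of vehicle in fibroblasts after IPI-926. For Thbs2 the groups overlapped once a fibroblast cluster found in 1 library alone, described below, was left out. The sequences come from RefSeq (GRCm38.p6), whose table held an entry for 5 of the 9 genes (Spp1, Postn, Tnc, Thbs2 and Sparc) and none for Mgp, Thbs1, Sparcl1 and Cthrc1. They span 250 bases, at chr5:104434861-104435110 on the plus strand for Spp1 and at chr17:14694263-14694512 on the minus strand for Thbs2. Capitals mark every match, on either strand, to the TATA box TATAAA, the AP-1 motif TGANTCA, the Runx motif AACCACA, the GLI motif GACCACCCA or the CCAAT box CCAAT.
Spp1: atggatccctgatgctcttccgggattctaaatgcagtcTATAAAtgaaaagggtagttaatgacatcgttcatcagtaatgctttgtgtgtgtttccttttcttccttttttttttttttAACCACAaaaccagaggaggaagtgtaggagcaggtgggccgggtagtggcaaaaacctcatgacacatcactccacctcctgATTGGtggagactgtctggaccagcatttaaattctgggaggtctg
Thbs2: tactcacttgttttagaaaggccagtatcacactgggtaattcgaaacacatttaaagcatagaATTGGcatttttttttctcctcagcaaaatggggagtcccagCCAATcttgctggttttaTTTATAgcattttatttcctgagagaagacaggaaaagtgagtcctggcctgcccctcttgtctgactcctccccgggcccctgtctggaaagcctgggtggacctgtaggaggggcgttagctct
Spp1 held 1 match each to the TATA box, the Runx motif and the CCAAT box. Thbs2 held 1 TATA box match and 2 CCAAT box matches. Among 32851 promoter windows of the same length, the TATA box letters were in 12.37%, CCAAT in 33.85%, the AP-1 letters in 6.75%, the Runx letters in 4.4% and the GLI letters in 0.23%. The GLI and AP-1 letters were in none of the 5 windows, which describes these letters in these bases and no more.

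The matrices held 62905 barcodes. After filters on depth and doublets 49797 cells remained, 6184 to 14156 per library, with 87944586 to 151429612 UMIs per library. UMIs are counted molecules, and levels are given as CPM, the gene's UMIs over all UMIs of the class in that library on the usual counts-per-total scale. They come from the 3′ ends of transcripts and do not scale with transcript length. Cells were clustered without the 9 members, and clusters were named from fixed markers into 12 classes, with 5645 cells left unnamed. A pair of libraries shared at most 59 barcodes, and none held the same counts within sampling noise (chi-square per degree of freedom of 314.4 or more). IPI-926 replicate 3 stood apart. It had 1924 of the 3552 fibroblasts, and 1882 of those formed a cluster of their own, led by Crabp1, with a median of 44867 UMIs per cell and all its cells from that library; only 42 of its fibroblasts lay in the cluster shared by the other 5 libraries. Fibroblast values of the members are therefore also given without that cluster, while those of Gli1 and of the related genes are given with it only. In the fibroblasts, Gli1, a direct Hedgehog target, was at 11.4 ± 0.677 scaled CPM (SD, n = 3) after vehicle and 0.684 ± 0.685 after IPI-926 (SD, n = 3), a log2 fold change of -4.93 with an edgeR p of 0.000337 that was 0.889 after adjustment over 12193 genes.

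The classes differed in which members they held. Sparc, a collagen-binding glycoprotein also called osteonectin, was at 3015 to 12613 CPM in fibroblasts, mesothelial, perivascular and endothelial cells and at most 348 CPM in any library of the ductal, macrophage, neutrophil or lymphoid classes. Sparcl1, its close relative hevin, was by mean CPM highest in perivascular cells (1346 to 4596 CPM), then in endothelial cells (888 to 1370 CPM). Fibroblasts ranged more widely, from 37.6 to 2963 CPM, and were below endothelial cells in 4 of 6 libraries. Sparcl1 reached at most 27.1 CPM in mesothelial cells, where Sparc was at 4671 to 9141 CPM. Spp1 stood apart from the rest in being high in epithelium: ductal cells held a median of 4343 CPM. Postn, Tnc, Thbs2 and Cthrc1 were highest in stromal classes, and Thbs1 was found in stroma, endothelium, macrophages, ductal cells and some neutrophils.

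**Figure D1:**
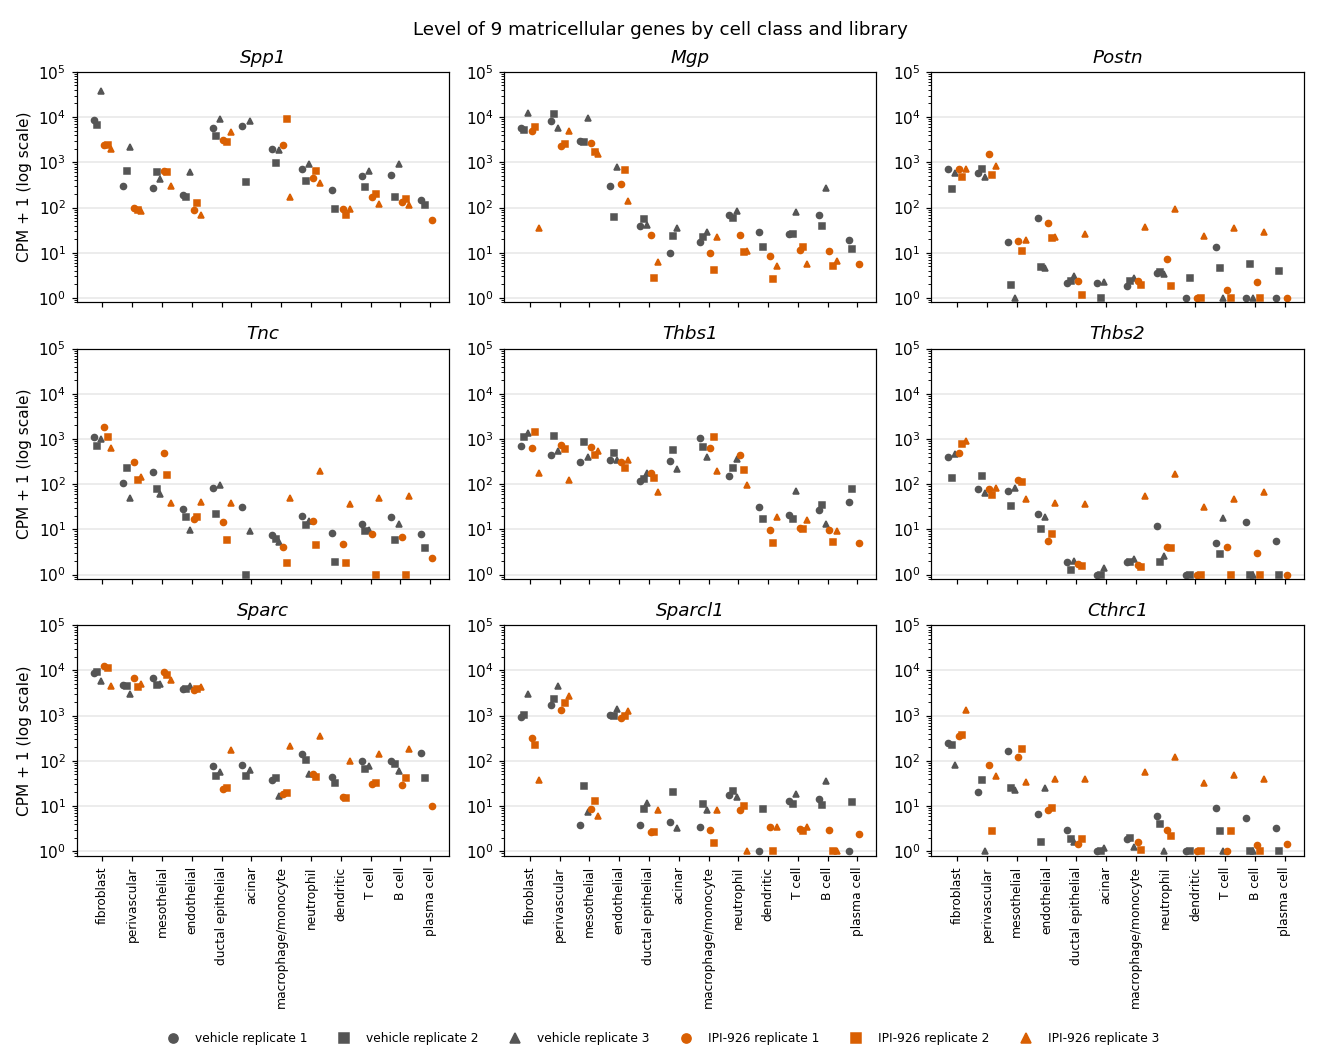
Level of each member (CPM + 1, log scale) in 12 cell classes, 1 point per library with at least 20 cells of the class; grey points are vehicle and orange points IPI-926, and the marker shape gives the replicate. Sparc was at 3015 CPM or more in the 4 stromal and vascular classes at the left, while Spp1 was also high in ductal cells; the raised low-level points of Postn, Tnc, Thbs2 and Cthrc1 at the right belong to IPI-926 replicate 3.

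The order of the classes was tested within libraries with an exact sign-flip permutation test, two-sided, whose smallest p with 6 libraries is 0.03125. Tnc was higher in fibroblasts than in mesothelial cells in 6 of 6 libraries, by 3.08 ± 0.82 on the log2 scale (SD, n = 6), with an exact p of 0.03125. Sparcl1 was higher in perivascular than in endothelial cells in 6 of 6 libraries, by 1.08 ± 0.40 (SD, n = 6), at the same exact p. Cthrc1 was higher in fibroblasts than in mesothelial cells in 6 of 6 libraries, by 2.23 ± 1.71 (SD, n = 6), again at that exact p. The classes were ranked by mean CPM in these same libraries, so each p describes an order picked from the values it tests. Acinar and plasma cells, with at least 20 cells in too few libraries of a group, were not ranked. Adjusted over the 9 members, each of these exact p-values became 0.09375. At the smallest p of 0.03125 these members could not pass 0.05 unless more members reached it too. The adjusted values therefore do not settle whether the top classes differ. Thbs2 was higher in fibroblasts than in perivascular cells in 5 of 6 libraries, by 2.47 ± 1.38 (SD, n = 6), with an exact p of 0.0625 (adjusted 0.1406). For the other 5 members the mean difference between the top neighbours was smaller than its SD over libraries: Spp1 in fibroblasts and ductal cells (higher in fibroblasts in 3 of 6 libraries), Mgp in perivascular cells and fibroblasts (3 of 6), Postn in perivascular cells and fibroblasts (4 of 6), Thbs1 in fibroblasts and macrophages (4 of 6) and Sparc in fibroblasts and mesothelial cells (5 of 6).

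Where the UMIs of a gene came from depended on how many cells of each class a library held. Ductal cells supplied 17.4% to 72.1% of a library's Spp1 UMIs, fibroblasts 0.918% to 75.2% and macrophages 1.45% to 55.0%. Mesothelial cells supplied 5.74% to 72.5% of Mgp UMIs and perivascular cells 3.24% to 7.76%. Fibroblasts supplied 60.5% to 93.7% of Postn UMIs, the narrowest range of fibroblast shares among the members. In suspensions like these, fewer cells of a class and less RNA per cell cannot be told apart from the sum over all cells.

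**Figure D2:**
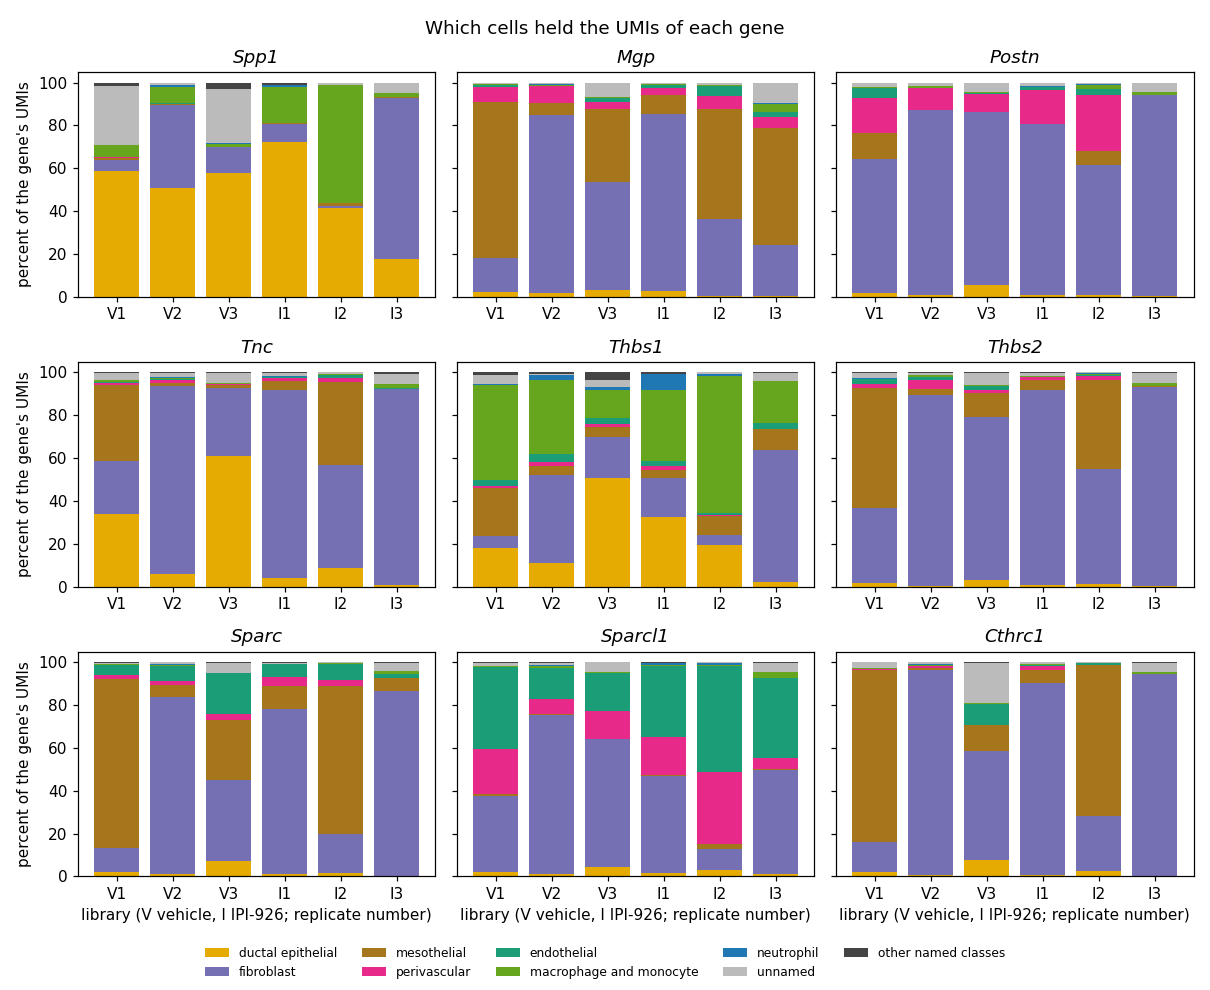
Percent of each gene's UMIs found in each class, 1 bar per library (V vehicle, I IPI-926, with the replicate number). In IPI-926 replicate 2 macrophages held 55.0% of the Spp1 UMIs, and in IPI-926 replicate 3 fibroblasts held 75.2%.

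The treatment was compared in each of 10 classes with at least 20 cells in 2 or more libraries of each group, by edgeR's quasi-likelihood test on UMI sums, adjusted over all genes of the class. Members passed in 0 of the 10 classes, where edgeR called 0% of genes in 8 classes, 0.0139% in T cells and 0.0368% in B cells. In fibroblasts edgeR called 0 of 12193 genes and had 467 below 0.05 before adjustment (3.83%), among them Spp1, Sparcl1, Thbs2 and Cthrc1. DESeq2 called 30 fibroblast genes (0.247%; 0.206% lower), among them Spp1 and Sparcl1, both lower. In fibroblasts the scaled levels of 4 of the 9 members did not overlap between the groups, where 9.64% of all tested genes did so: Spp1 and Sparcl1 were lower in all 3 IPI-926 libraries (5.26% of genes in that direction) and Thbs2 and Cthrc1 higher (4.38%). Both higher members and Sparcl1 overlapped between the groups once the Crabp1-led cluster of IPI-926 replicate 3 was left out, and Spp1 did not (unscaled CPM). Sparc, which overlapped with that cluster, was higher in all 3 IPI-926 libraries without it. The share of all genes that did not overlap in that setting was not counted. In mesothelial cells and in macrophages the groups overlapped for all 9 members, beside 9.34% and 5.4% of genes that did not overlap. In endothelial cells 1 of 9 members, Spp1, was lower without overlap, beside 5.68% of genes.

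Spp1 (chr5:104435118-104441050, GRCm38) encodes osteopontin, a phosphoprotein that binds integrins and CD44 and draws in macrophages. In fibroblasts vehicle replicates 1, 2 and 3 held 8628, 6549 and 37041 CPM. The same class held 2396, 2422 and 2007 CPM in IPI-926 replicates 1, 2 and 3. Every treated library lay below every vehicle library, and vehicle replicate 3 stood far above the other two. The means were 17406 ± 17036 (SD, n = 3) and 2275 ± 232 CPM (SD, n = 3). The log2 fold change was -2.87 (SE 0.68), with an edgeR p of 0.00472 and an adjusted p of 0.889, while DESeq2 gave an adjusted p of 0.00257. Without vehicle replicate 3, the highest library, it was -1.70 (edgeR p 0.000401, adjusted p 0.999), and without the Crabp1-led cluster, which left IPI-926 replicate 3 at 310 CPM in 42 cells, it was -3.27 (adjusted p 0.9998).

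Spp1 was unevenly spread over the fibroblasts. The 10% of cells with most Spp1 held 79.8%, 55.1% and 51.9% of the fibroblast Spp1 UMIs in vehicle replicates 1, 2 and 3, and 75.02%, 76.6% and 48.8% in IPI-926 replicates 1, 2 and 3. The median cell was at 238, 1567 and 11669 CPM there and at 116, 67.5 and 1078 CPM in the IPI-926 libraries, so the medians overlapped, IPI-926 replicate 3 lying above vehicle replicate 1. The fibroblasts outside the Crabp1-led cluster were then divided again, without the members, into 11 sub-clusters, described here by number and leading genes.

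Sub-cluster 1 (256 cells, led by Ace, Tfap2a and Bpgm, with the ductal marker Tff2 also among its top genes) held the highest Spp1, at 23266 CPM in 32 cells of vehicle replicate 1 and 56981 CPM in 224 cells of vehicle replicate 3. It had 0 of 291, 0 of 56 and 0 of 42 such cells in the IPI-926 libraries, which allows shares of up to 1.03%, 5.36% and 7.14%, and 0 of 745 in vehicle replicate 2 (up to 0.403%). In vehicle replicate 2 the high Spp1 lay in sub-cluster 7 (131 cells, led by Col10a1, Gzme and Gzmc), at 16032 CPM in 130 cells. Sub-cluster 3, led by the fibroblast genes Clec3b and Tnxb, was low in every library with at least 20 of its cells: 104 and 55.0 CPM in vehicle replicates 1 and 2, and 217 and 38.2 CPM in IPI-926 replicates 1 and 2. Sub-cluster 5, led by Pappa2 and Star, held 19130 CPM in 28 cells of vehicle replicate 1 and 3076 CPM in 119 cells of IPI-926 replicate 1. Sub-clusters 9 (80 cells) and 10 (59 cells) were led by the immune genes Cd74 and S100a9. Sub-cluster shares differed between libraries of 1 group as well as between groups, and no test was made of them.

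**Figure D3:**
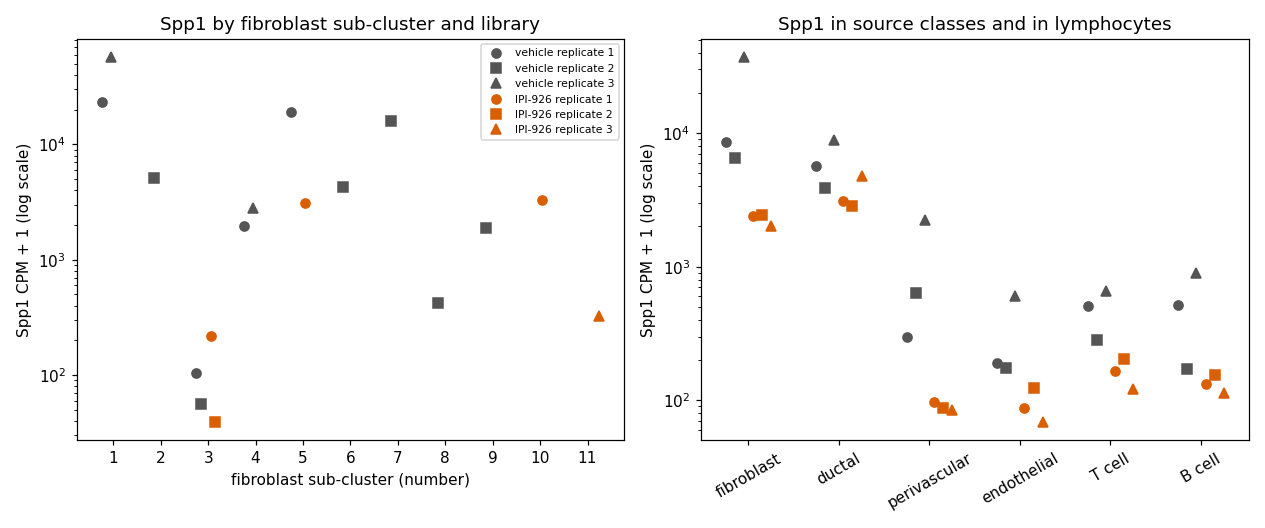
Spp1 level (CPM + 1, log scale) per library, left in 11 fibroblast sub-clusters with at least 20 cells of a library, right in 4 source classes and in T and B cells. In sub-clusters 1, 5 and 7 vehicle libraries reached 16032 CPM or more, while sub-cluster 3 stayed at 217 CPM or below in both groups; lymphocytes held 113 to 901 CPM.

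Free RNA was not measured, and the level in B cells was set beside these values. B cells, taken here as a class that should lack the gene, held 513, 170 and 901 CPM of Spp1 in vehicle replicates 1, 2 and 3. They held 132, 153 and 113 CPM in the IPI-926 libraries, so the B-cell level too was lower after IPI-926. Fibroblasts held 16.8, 38.4 and 41.1 times the level of the B cells of their library after vehicle, and 18.1, 15.8 and 17.8 times after IPI-926. The 17 ductal markers summed to 925, 208 and 827 CPM in vehicle fibroblasts and 150, 216 and 152 CPM in IPI-926 fibroblasts, with none at 0 in any of the 6 libraries; in ductal cells themselves the same sum was 10614 to 37055 CPM beside 2832 to 8902 CPM of Spp1. Fibroblasts of vehicle replicate 2, with a ductal marker sum within the IPI-926 range, held 6549 CPM of Spp1. The part of free RNA and of ductal RNA in the difference was not tested. With every cell thinned to 1000 UMIs, 43.0%, 58.5% and 79.5% of vehicle fibroblasts and 33.0%, 28.6% and 62.0% of IPI-926 fibroblasts had a Spp1 UMI, against 79.3%, 83.6% and 98.3%, and 75.6%, 69.6% and 98.2%, before thinning. The thinned share in T cells was 46.5% in vehicle replicate 1, above its fibroblasts, so the thinned share did not set fibroblasts apart from T cells in that library. Thinning left out 0 to 2 fibroblasts per library.

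In perivascular cells Spp1 was at 295, 637 and 2226 CPM after vehicle and 96.0, 85.7 and 83.0 CPM after IPI-926, a fitted log2 change of -3.56 with an SE of 0.78 (edgeR adjusted p 0.9999), which DESeq2 called (adjusted p 0.0167, with 0.0885% of genes called). These levels were 0.560 to 3.74 times those of B cells in the same libraries, and below the B cells in 4 of the 6. Spp1 and Mgp were the members that did not overlap between the groups there, both lower, where 3.97% of all genes were. Without vehicle replicate 3 the Spp1 fold was -2.42 and passed in edgeR (adjusted p 0.0369), where edgeR called 3 of 7414 genes. Endothelial Spp1 was at 92.4 ± 28.2 CPM (SD, n = 3) after IPI-926 and 320 ± 242 CPM (SD, n = 3) after vehicle, 0.369 to 1.02 times the B-cell level, a fold that DESeq2 also called (adjusted p 0.0435; 0.176% of genes).

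Ductal cells held 5697, 3900 and 8902 CPM of Spp1 after vehicle and 3077, 2832 and 4785 CPM after IPI-926. The groups overlapped, since IPI-926 replicate 3 exceeded vehicle replicate 2. The log2 fold change was -0.78 (SE 0.39, edgeR adjusted p 0.9997). Tested within libraries with limma, the fibroblast response was 1.74 lower than the ductal response on the log2 scale (first minus second class -1.74, SE 0.47, p 0.00783), and the adjusted p over 11743 genes was 1.

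Macrophages and monocytes held 1987, 973 and 1908 CPM of Spp1 after vehicle and 2467, 8939 and 171 CPM after IPI-926. The IPI-926 libraries held both the highest and the lowest value. The fitted log2 change of 1.35, with an SE of 1.16 (edgeR adjusted p 0.9996), turned to -0.32 without IPI-926 replicate 2. In that library the macrophages of cluster 13, led by Mmp12, Atp6v0d2 and Dcstamp, held 19492 CPM in 437 cells, against 1467 to 4013 CPM in the other 4 libraries with at least 20 of these cells. IPI-926 replicate 3 had its macrophages mostly in clusters 16, 30 and 32, at 134, 126 and 599 CPM of Spp1, and at least 96.3% of each of those clusters came from it. Of 12 genes that mark Spp1-rich macrophages in tumours, such as Arg1, Gpnmb and Trem2, all were tested in this class and 0 passed in edgeR, 9 above and 3 below 0, with a median log2 fold change of 0.27 beside 0.01 over all genes. Ctsk, a matrix-degrading cathepsin, had the smallest p of them: 9.37 ± 1.21 scaled CPM (SD, n = 3) after vehicle and 18.2 ± 2.27 (SD, n = 3) after IPI-926, with an edgeR adjusted p of 0.9996. Lgals3, which encodes a galectin, followed at 1022 ± 273 and 1370 ± 705 scaled CPM (SD, n = 3 each).

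Mgp (chr6:136872435-136875823) encodes matrix Gla protein, a vitamin K-dependent inhibitor of calcification that also binds BMPs. Perivascular cells held 8398, 11463 and 5678 CPM after vehicle. After IPI-926 they held 2313, 2540 and 4960 CPM. The groups did not overlap, the nearest libraries being vehicle replicate 3 and IPI-926 replicate 3. The means were 8513 ± 2894 and 3271 ± 1467 CPM (SD, n = 3 each), and the log2 fold change was -1.43 (SE 0.35), with an edgeR p of 0.00217 and an adjusted p of 0.9999. DESeq2 gave an adjusted p of 0.0658, and edgeR without a filter on low counts one of 2.96e-05. Without that filter edgeR called 34 of 16333 genes, against 0 of 6780 with it, so the adjusted p depended strongly on the filter. The fold stayed between -1.81 and -1.14 when any 1 library was left out, and no such fit passed.

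All 406 perivascular cells lay in 1 cluster, led by Rgs5, Higd1b and Myh11, with 61 to 119 cells per vehicle library and 21 to 54 per IPI-926 library. The 14 perivascular markers summed to 9870, 11515 and 14801 CPM after vehicle and 7748, 12559 and 18494 CPM after IPI-926, and the 17 fibroblast markers to 8272, 14354 and 4420 CPM and 8202, 8943 and 5095 CPM; both ranges overlapped. The share of perivascular cells with a Mgp UMI, thinned to 1000 UMIs, was 55.8%, 69.8% and 70.3% after vehicle and 41.5%, 42.2% and 50% after IPI-926, against 63.4%, 73.8% and 78.2%, and 44.0%, 46.3% and 57.1%, unthinned. B cells had at most 7.69% when thinned, and thinning left out 5 to 18 perivascular cells per library.

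Mesothelial cells and fibroblasts, which also held high Mgp, gave no such separation in the scaled levels, while several classes of low Mgp did. Mesothelial cells, the lining of the abdominal organs, held 2924, 2758 and 9649 CPM after vehicle and 2720, 1650 and 1495 CPM after IPI-926. Vehicle replicate 2 and IPI-926 replicate 1 nearly met, and once scaled by edgeR the groups overlapped, at a fitted log2 change of -1.34, with an SE of 0.55 (edgeR adjusted p 0.9999), that was -0.47 without vehicle replicate 3. Fibroblasts held 5769, 5202 and 12088 CPM after vehicle and 5029, 6148 and 33.6 CPM after IPI-926. The low value was the Crabp1-led cluster, at 19.3 CPM, and the 42 other fibroblasts of that library held 1770 CPM. Ductal Mgp was at 44.6 ± 9.78 CPM after vehicle and 10.0 ± 11.48 CPM after IPI-926 (SD, n = 3 each), the 1 member of 9 lower without overlap in that class, beside 4.21% of all genes. Low-level Mgp in neutrophils (67.3 ± 15.4 and 15.8 ± 9.90 scaled CPM, SD, n = 3 each) and T cells (42.0 ± 30.7 and 10.1 ± 4.77) was also lower in all IPI-926 libraries; of the members tested, 2 of 6 in neutrophils and 3 of 4 in T cells were lower without overlap, beside 6.99% and 2.63% of all genes. In T cells these were Spp1, Mgp and Thbs1, and in neutrophils Mgp and Sparcl1. Spp1 was the 1 of 2 members tested in B cells that was lower without overlap (3.17% of genes), and Mgp the 1 of 4 in dendritic cells (9.14%), which had 2 vehicle libraries. Mgp was not tested in B cells, which held 126 ± 128 CPM after vehicle and 6.63 ± 3.12 CPM after IPI-926 (SD, n = 3 each).

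Thbs1 and Thbs2 encode thrombospondins, large secreted glycoproteins that restrain vessel growth, bind CD36 and CD47 and, in the case of Thbs1, activate latent TGF-beta. Thbs2 (chr17:14665500-14694235) was at 394, 136 and 468 CPM in vehicle fibroblasts and 488, 753 and 896 CPM in IPI-926 fibroblasts. The groups did not overlap, but vehicle replicate 3 and IPI-926 replicate 1 were close. The log2 fold change was 1.16 (SE 0.47, edgeR p 0.0442, adjusted p 0.889). Without the Crabp1-led cluster, which held 903 CPM, IPI-926 replicate 3 was at 152 CPM and the fold was 0.54 (adjusted p 0.9998). Perivascular Thbs2 was at 96.9 ± 47.0 and 72.9 ± 14.3 CPM (SD, n = 3 each) and mesothelial Thbs2 at 60.9 ± 26.0 and 92.6 ± 40.7 CPM (SD, n = 3 each), overlapping in both classes.

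Thbs1 (chr2:118111876-118127133) had many sources. Fibroblasts held 176 to 1393 CPM, macrophages 199 to 1078, mesothelial cells 308 to 840, perivascular cells 121 to 1150 and endothelial cells 222 to 486. Ductal cells held 65.8 to 178 CPM and supplied 2.23% to 50.9% of a library's Thbs1 UMIs, the highest share in vehicle replicate 3; ductal cluster 2 held 293 to 339 CPM in the 5 libraries with at least 20 of its cells. Macrophage cluster 11, led by Alox15, Marco and Fcna, was at 1553, 1414 and 1233 CPM in the vehicle libraries and 1792 and 1857 CPM in IPI-926 replicates 1 and 2, while cluster 13 was at 522, 362 and 248, and 537 and 277 CPM. Neutrophil cluster 20, led by Hcar2 and Acod1, held 563 and 2197 CPM in vehicle replicates 1 and 2 and 951 and 601 CPM in IPI-926 replicates 1 and 2, against 286 CPM or less in the largest neutrophil cluster. Without the Crabp1-led cluster the fibroblasts of IPI-926 replicate 3 were at 355 CPM of Thbs1 in place of 176, still the lowest of the 6 libraries, and the log2 fold change was -0.34 (SE 0.50). With all clusters its log2 fold changes in fibroblasts (-0.46, SE 0.68), macrophages (-0.09, SE 0.65) and perivascular cells (-0.54, SE 0.66) were within 1 SE of 0, with edgeR adjusted p of 0.915 or more. Each changed sign without 1 library: to 0.0098 in fibroblasts without IPI-926 replicate 3, to 0.35 in macrophages without vehicle replicate 1, and to 0.0285 in perivascular cells without vehicle replicate 2.

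Tnc and Postn encode matrix proteins of remodelling tissue: tenascin-C, which loosens cell adhesion, and periostin, which binds integrins and links collagen. Tnc (chr4:63959785-64047015) was at 1131, 680 and 1016 CPM in vehicle fibroblasts and 1882, 1079 and 621 CPM in IPI-926 fibroblasts, the treated libraries holding both ends of the range. Its log2 fold change was 0.40 (SE 0.42, edgeR adjusted p 0.890), and it was below 0 (-0.11) without IPI-926 replicate 1. Without the Crabp1-led cluster IPI-926 replicate 3 was at 192 CPM of Tnc and the fold was 0.22 (SE 0.73). Ductal cells, which supplied 61.2% of the Tnc UMIs of vehicle replicate 3, held 82.4, 20.4 and 96.3 CPM after vehicle and 13.5, 4.94 and 37.1 CPM after IPI-926. Postn (chr3:54361109-54391037) was at 572, 722 and 465 CPM in vehicle perivascular cells and 1493, 513 and 830 CPM in IPI-926 perivascular cells, a log2 fold change of 0.65 (SE 0.36); the edgeR adjusted p was 0.9999. Vehicle and IPI-926 fibroblasts held 516 ± 230 and 633 ± 135 CPM of Postn (SD, n = 3 each), with overlap, a log2 fold change of 0.36 (SE 0.39). Without the Crabp1-led cluster IPI-926 replicate 3 was at 169 CPM in place of 704, the lowest of the 6 libraries, and the fold was -0.11 (SE 0.57). Among the other named classes Postn reached 89.5 CPM, in the neutrophils of IPI-926 replicate 3.

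Sparc (chr11:55394500-55423183) was close between the groups in endothelium. Endothelial Sparc was at 4025 ± 392 CPM after vehicle and 3956 ± 270 CPM after IPI-926 (SD, n = 3 each), and the fitted log2 change was 0.04 (SE 0.14), at an edgeR adjusted p of 0.986. Fibroblasts held 8631, 9066 and 5732 CPM after vehicle and 12613, 11465 and 4578 CPM after IPI-926. IPI-926 replicate 3 was the lowest of the 6 with its Crabp1-led cluster (4514 CPM) and at 12396 CPM without it. Without the cluster all 3 treated libraries were above the vehicle libraries in unscaled CPM, at a log2 fold change of 0.68 (SE 0.22, edgeR p 0.0167, adjusted p 0.9998). How many of all genes did so in that setting was not counted. Mesothelial and perivascular folds were 0.55 (SE 0.23) and 0.35 (SE 0.26), each with an edgeR adjusted p of 0.9999.

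Sparcl1 (chr5:104079111-104113733), which lies on the chromosome of Spp1, was at 932, 1048 and 2963 CPM in vehicle fibroblasts and 325, 224 and 37.6 CPM in IPI-926 fibroblasts. Every IPI-926 library was below every vehicle library. The log2 fold change was -3.02 (SE 0.86), with an edgeR adjusted p of 0.889 and a DESeq2 adjusted p of 0.0177. The Crabp1-led cluster of IPI-926 replicate 3 was at 29.3 CPM and its 42 other fibroblasts at 1042 CPM, above vehicle replicate 1; without the cluster the fold was -1.57 (edgeR adjusted p 0.9998) and the groups overlapped. In the vessel-associated classes the groups overlapped for Sparcl1: 1125 ± 213 and 1031 ± 180 CPM in endothelial cells and 2880 ± 1512 and 2009 ± 713 CPM in perivascular cells (vehicle and IPI-926, SD, n = 3 each), with log2 fold changes of -0.06 (SE 0.18) and -0.55 (SE 0.38). Within fibroblasts, sub-cluster 1 held 2633 and 3742 CPM of Sparcl1 in vehicle replicates 1 and 3.

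Cthrc1 (chr15:39076932-39087121) encodes a small secreted protein made by activated fibroblasts at sites of collagen deposition. It was at 250.5, 227 and 79.0 CPM in vehicle fibroblasts and 351, 363 and 1304 CPM in IPI-926 fibroblasts. All treated libraries were above all vehicle libraries. The log2 fold change was 1.90 (SE 0.70, edgeR p 0.0318, adjusted p 0.889). Without the Crabp1-led cluster, which held 1314 CPM, IPI-926 replicate 3 was the lowest of the 6 libraries at 60.8 CPM and the fold was 0.52 (adjusted p 0.9998). That library also had more Cthrc1 outside fibroblasts, 39.4 CPM in B cells and 54.2 CPM in macrophages, against at most 4.42 and 0.943 CPM in the other libraries.

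**Figure D4:**
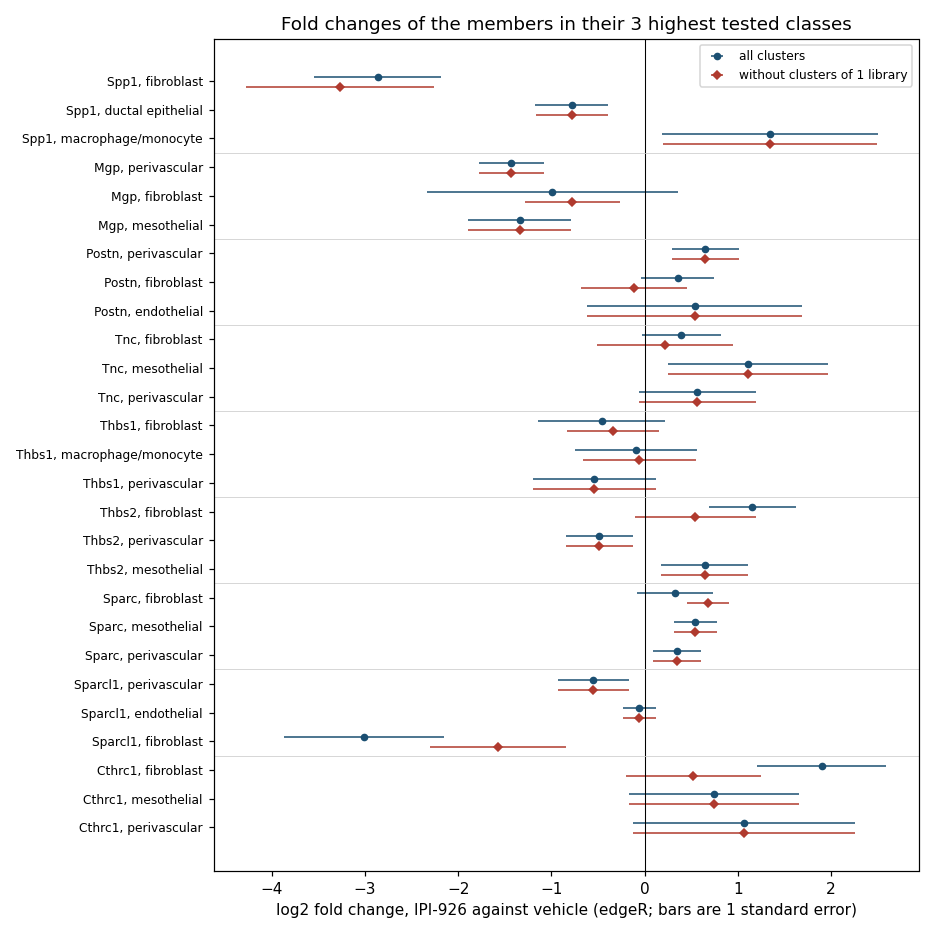
Log2 fold change of each member, IPI-926 against vehicle, in its 3 tested classes of highest level; points are edgeR estimates and bars 1 standard error, in blue with all clusters and in red without clusters of which 1 library supplied at least 95% of the cells. In fibroblasts Spp1 is at -2.87 and -3.27, Sparcl1 at -3.02 and -1.57, and Cthrc1 at 1.90 and 0.52.

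Summed over all kept cells, Mgp was at 836, 1144 and 843 CPM after vehicle and 519.7, 256 and 86.7 CPM after IPI-926. It was the only member whose scaled levels did not overlap, where 4.35% of genes were lower without overlap; the log2 fold change was -1.66 (SE 0.61), the edgeR adjusted p was 0.9999, and an exact permutation test over the libraries, two-sided, gave p = 0.1, the smallest that 3 against 3 allows. Sparcl1 was at 61.4, 257 and 173 CPM after vehicle and 61.3, 34.1 and 47.1 CPM after IPI-926. Vehicle replicate 1 and IPI-926 replicate 1 nearly met, and their order turned once the levels were scaled, so that the groups overlapped. The log2 fold change of Sparcl1 was -1.72 (SE 0.53, edgeR p 0.0161, adjusted p 0.9999), and the exact permutation p on the unscaled levels was also 0.1. Spp1 over all cells was at 4257, 3077 and 11015 CPM after vehicle and 2395, 3928 and 1631 CPM after IPI-926, with overlap. Cthrc1, Thbs2 and Postn were at 847, 589 and 459 CPM in IPI-926 replicate 3 and at most 77.4 CPM in any other library.

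Related genes were counted from fixed lists. Of 23 other matricellular genes 17 were tested in fibroblasts and 0 passed in edgeR, 10 above and 7 below 0, with a median log2 fold change of 0.52 beside 0.02 over all genes tested. Ccn1, an integrin-binding protein of the CCN family, was at 326 ± 28.8 and 184 ± 29.6 scaled CPM (vehicle and IPI-926, SD, n = 3 each); its fold was -0.83 on the log2 scale (SE 0.23, edgeR adjusted p 0.889). Tnn, which encodes tenascin-N, was at 0.654 ± 0.304 and 3.88 ± 0.842 scaled CPM (SD, n = 3 each).

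Of 19 receptors 14 were tested in fibroblasts, 7 above and 7 below 0, and 0 passed, with a median of 0.02 beside 0.02. Itgb5, an integrin chain that pairs with Itgav to bind osteopontin and periostin, was at 428 ± 241 and 180 ± 59.5 scaled CPM (SD, n = 3 each; edgeR adjusted p 0.889), and Cd47 at 207 ± 48.5 and 291 ± 61.4. In macrophages 15 receptors were tested, 9 above and 6 below 0, and 0 passed, with a median of 0.18 beside 0.01; Itgb3 and Itga9 had the smallest p there. Itgb3 was at 0.426 to 1.04 scaled CPM after vehicle and 1.07 to 3.89 after IPI-926. Itga9 was at 12.9 ± 7.33 and 24.7 ± 7.74 scaled CPM (SD, n = 3 each).

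Of 16 modifying enzymes and bound ligands 15 were tested in fibroblasts, 6 above and 9 below 0, and 0 passed, with a median of -0.14 beside 0.02. The ligand Bmp4 was at 19.8 ± 7.88 and 3.97 ± 2.21 scaled CPM and Bmp2 at 3.54 ± 2.62 and 17.1 ± 17.2 scaled CPM (SD, n = 3 each). All 15 myofibroblast matrix companions were tested in fibroblasts, 4 above and 11 below 0, and 0 passed, with a median of -0.34 beside 0.02. Col10a1, a short-chain collagen that also led the Spp1-rich sub-cluster 7, was at 6.60 to 40.6 scaled CPM after vehicle and 0 to 4.39 after IPI-926. Ltbp2 was at 519 ± 101 and 278 ± 147 scaled CPM (SD, n = 3 each). In perivascular cells 13 of these companions were tested, 6 above and 7 below 0, and 0 passed, with Col10a1 at 118 to 2537 scaled CPM after vehicle and 3.92 to 11.6 after IPI-926 (log2 fold change -7.01, edgeR adjusted p 0.9999). Ltbp2 there was at 19.0 to 135 and 3.92 to 15.1 scaled CPM.

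The genes most like each member were sought over 65 sums of 1 library and class in 12 classes, among 8855 genes, by Pearson's r. The sums share libraries and may share free RNA, and r is a description. The closest to Spp1 were Sox9 (r = 0.734), F3 (0.709) and Pmepa1 (0.685), the lowest values among the 9 members, whose closest genes otherwise reached 0.844 to 0.958. Mgp was closest to Hoxb2 (0.899), Prkg1 (0.896) and Tagln (0.895), and Sparcl1 to Tmem204 (0.901), Col15a1 (0.894) and Col4a2 (0.891). Sparc was closest to Fkbp10 (0.958), Bgn (0.954) and Timp3 (0.951), genes of collagen folding, proteoglycan and protease inhibition. Thbs2 was closest to Fstl1 (0.941), Fbn1 (0.919) and Col5a2 (0.907), Postn to Prrx1 (0.911), Pdgfrb (0.881) and Col6a3 (0.879), and Tnc to Col6a1 (0.891), Pcolce (0.890) and Thbs2 (0.880). Cthrc1 was closest to Serpinf1 (0.911), Thbs2 (0.902) and Spon2 (0.879). Thbs1 was closest to Lhfpl2 (0.844), Cxcl1 (0.817) and Fndc3b (0.804), of which Cxcl1 encodes a neutrophil attractant.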

How the data were processed

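UMI counts per gene and cell were deposited by the authors as 1 filtered matrix per library; per the file headers Cell Ranger 6.1.2 made them, while version 2.1.1 and the build mm10 stand in the submitters' processing notes. Raw totals were 100810942 to 174929328 UMIs per library. A cell needed 500 UMIs, 300 genes and a mitochondrial share of 20% or less, and 5114 called doublets were removed. Cells were clustered with scanpy 1.11.5 (2000 variable genes, 30 components, Leiden resolution 1) without the members, and 39 clusters were named from fixed markers. UMIs were summed per library and class (at least 20 cells) and tested with edgeR 4.0.16, quasi-likelihood, with Benjamini-Hochberg adjustment at 0.05. DESeq2 1.42.0, other filters and left-out libraries or clusters were alternatives, and limma 3.58.1 tested differences between classes. Group overlaps use edgeR-scaled CPM, and other levels unscaled CPM. On simulated fibroblast counts for 12193 genes, edgeR recovered 6%, 46%, 90% and 98% of genes changed by 1, 2, 3 and 4 log2 units. The changed genes, 50 of each size, were drawn only from those above 20 CPM, and 7 unchanged genes were called. No simulated library stood apart as IPI-926 replicate 3 did, so these shares need not hold in the real counts.

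All 9 members were named, with the 3 most correlated genes of each, list genes that passed or had the 2 smallest p-values, and Gli1. The members and lists were chosen with earlier results of these data known. Cluster and sub-cluster descriptions were chosen after their values were seen. Protein sequences were not used here. Part of the mice's genotype is not reported here.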

Additional observations from a re-analysis of the deposited data

How the results depend on the processing

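No paired analysis was possible because the labels number no replicates and pair no tumours; the replicate numbers used here only name the libraries of a group in accession order. The precision is limited by 3 libraries per group and by as few as 21 perivascular and 56 fibroblast cells in a library. Free RNA can limit it further and was not measured. Counts of called genes differed by tool and filter. DESeq2 called 126 over all cells, 71 in ductal, 30 in fibroblast, 29 in mesothelial, 18 in endothelial, 9 in macrophage, 7 in neutrophil, 6 in perivascular and 2 in T cells, where edgeR called 0, or 1 in T cells and 1 in B cells. Without a filter on low counts edgeR called 42 in neutrophils, 34 in perivascular, 28 in T, 27 in B, 17 in dendritic and 7 in endothelial cells, and with a stricter cell filter 1 in neutrophils. Leaving out 1 library gave 1 to 7 in B, 0 to 7 in T, 0 to 5 in endothelial, 0 to 3 in perivascular, 0 to 2 in neutrophils, and 0 to 1 in dendritic, fibroblast, macrophage and mesothelial cells.

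Of the members' folds in their 3 tested classes of highest level, 280 alternatives kept direction and side of the threshold, 3 newly passed and 14 changed sign. Spp1 in perivascular and endothelial cells lies outside this count. Over all cells 93 kept and 6 changed sign. Without clusters of 1 library the fold of Postn in fibroblasts was -0.11 and of Tnc over all cells -0.39. With a stricter cell filter, which left 2 IPI-926 libraries with enough perivascular cells, the fold of Thbs1 in that class was 0.0039. Leaving out 1 library, log2 folds ranged from -0.32 to 1.91 for Spp1 in macrophages, -0.11 to 0.71, -0.0486 to 1.75 and -0.0183 to 1.35 for Tnc in fibroblasts, mesothelial and perivascular cells (each lowest without IPI-926 replicate 1), -1.27 to 0.0098, -0.80 to 0.35 and -0.93 to 0.0285 for Thbs1 in fibroblasts, macrophages and perivascular cells, -0.72 to 0.0155 for Thbs2 and -0.61 to 2.00 for Cthrc1 in perivascular cells, and -0.18 to 0.0591 for Sparcl1 in endothelial cells. Over all cells they ranged from -0.12 to 1.40 for Tnc, -0.41 to 0.15 for Thbs1, -0.27 to 0.79 for Sparc and -0.10 to 3.98 for Cthrc1, each lower end but that of Thbs1 being without IPI-926 replicate 3. Of differences in response between classes, 69 kept and 12 changed sign. Perivascular minus fibroblast Mgp was 1.36, and -1.52 with the stricter filter, -0.58 without clusters of 1 library and -1.43 to 2.76 without 1 library. The value of -1.43 was without IPI-926 replicate 3. Under the stricter filter only 2 IPI-926 libraries kept enough perivascular cells, so the -1.52 also rests on fewer libraries. Fibroblast minus mesothelial was 0.17 for Sparc and -0.79 for Cthrc1 without clusters of 1 library. Without 1 library it was -0.66 to 1.49 for Cthrc1 and -0.92 to 0.0883 for Tnc, with -0.18 to 0.73 for Postn (perivascular minus fibroblast) and -1.17 to 0.0293 for Thbs1 (fibroblast minus macrophage). The cause was not tested. The class of highest level changed in 2 of 18 cases, both Mgp, from perivascular cells to fibroblasts, with doublets kept and without clusters of 1 library.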

Other observations

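Some of the highest Spp1 levels lay in cells without a class. Cluster 26 (404 cells, led by Nrn1 and Tnnt2) held 8109 CPM of Spp1 in 252 cells of vehicle replicate 1 and 68884 CPM in 150 cells of vehicle replicate 3, above the 37041 CPM of that library's fibroblasts. Cluster 33 (2516 cells, led by Crabp1 and S100a4), of which 2514 cells came from IPI-926 replicate 3, held 1509 CPM of Spp1. Both clusters were described after their values were seen. Their cells are part of the sums over all cells and of no class.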
